A study of Mus musculus with 7 samples.

Results

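Cytosolic ribosomal protein genes were taken as the gene symbols that begin with Rpl or Rps followed by a digit, together with Rpsa and the stalk genes Rplp0, Rplp1 and Rplp2, and without pseudogene symbols and the Rps6k kinases. The rule found 25 of the 23930 genes in the count tables, 13 with a large-subunit symbol (Rpl) and 12 with a small-subunit symbol (Rps). The measurements came from 7 libraries of sorted mouse bone marrow cells, made with the Ion AmpliSeq Transcriptome kit, which amplifies 1 short amplicon per gene. Common myeloid progenitors (CMPs) came from BL/6 mice (2 libraries) and from pMT-10 mice (2 libraries). Cells of pMT-10 mice that were lineage-negative, SCA-1-positive and c-KIT-positive (LSK) and carried CD150 and CD48 gave 2 libraries, and pMT-10 haematopoietic stem cells (HSC) gave 1. The pMT-10 mouse overexpresses IL-10 from a transgene whose metallothionein promoter responds to zinc, and BL/6 mice were the controls. Every mouse in the 4 groups had zinc in its drinking water for 15 days, the BL/6 controls included. The labels give neither ages nor the gates by which CMPs and HSC were sorted, and are silent on whether each library is a separate animal. The p-values therefore measure a spread between libraries that may be technical.

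A cytosolic ribosome joins a small subunit, which reads the mRNA, to a large subunit, which forms the peptide bond, and each subunit is built from ribosomal RNA and a fixed set of proteins. Genes for these proteins are among the most highly transcribed in a growing cell, and their mRNAs carry a 5′ terminal oligopyrimidine tract through which mTORC1 and LARP1 control their translation. In bone marrow the family is known from Diamond-Blackfan anaemia and the 5q- syndrome, in which loss of 1 copy of a ribosomal protein gene impairs red cell production, and from the low protein synthesis rate of stem cells.

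Totals ran from 7372430 to 13854314 counts per library, and 10104 to 10620 genes had 10 or more counts. CPM stands for counts scaled by the library total. At this depth a gene with 0 counts may still have a level of up to 3 counts, or 0.217 to 0.407 CPM. This floor covers counting error alone, because amplified reads without molecular identifiers are not independent molecules. The labels place the libraries of LSK CD150+CD48+ cells and pMT-10 CMPs in one count table, and those of BL/6 CMPs and HSC in another. These tables carry different dates and server numbers, and each is taken here as a sequencing run, a name the labels do not give. Strain and run therefore cannot be told apart in the CMPs, nor can population and run when HSC are set against the other pMT-10 cells. Across all tested genes the pMT-10 CMP pair differed most between its libraries (SD of the log2 difference 0.823, against 0.474 in LSK CD150+CD48+ cells and 0.385 in BL/6 CMPs). The summed level of 11 stem cell markers was 1211 CPM in HSC, 721 to 786 in LSK CD150+CD48+ cells and 283 to 489 in the CMPs. Ly6a alone was at 326 and 249 CPM in the LSK CD150+CD48+ pair. Against pMT-10 CMPs 4 of the 11 were called higher and 0 lower in LSK CD150+CD48+ cells, and 8 higher and 1 lower in HSC. Of 12 markers of myeloid progenitors, the CMP and LSK CD150+CD48+ libraries each held 12 at 10 or more counts and HSC 11. Their sum was 2000 and 1911 CPM in BL/6 CMPs, 1385 and 1879 in pMT-10 CMPs, 1927 and 2130 in the LSK CD150+CD48+ pair and 887 in HSC. The LSK CD150+CD48+ sums are mostly Gata2, at 1448 and 1512 CPM. Of the 12 markers 8 were called lower there than in pMT-10 CMPs and 1 higher (median log2 fold change -2.09). The HSC library held 8 of 9 erythroid markers at 10 or more counts, but their sum was 706 CPM, against 7114 to 11729 CPM in the 6 other libraries. Most of each sum was Car1, at 426 CPM in HSC and 6435 to 10483 CPM in the others. Of the 9 markers 6 were called lower in HSC than in pMT-10 CMPs and 0 higher, though Alas2 was highest in HSC (4.50 CPM). Mature myeloid markers summed to 337 CPM in HSC, of which Lyz2 was 319, and to 71.0 to 146 CPM in the other libraries. Against pMT-10 CMPs 2 of 7 tested were called higher in HSC and 2 lower. B and plasma cell markers summed to 54.0 CPM in HSC, mostly Cd79b (52.3), and to 11.3 to 20.3 CPM elsewhere. The T and NK cell sum, 103 CPM in HSC, lay within the range of the others. A part of mature cells in the HSC values was not tested.

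The panel reaches a small part of the family. Of 22 genes listed for Diamond-Blackfan anaemia and other ribosomopathies, Rps14 was the 1 in the tables. Rpsa, Rplp1, Rplp2, Rpl5, Rpl11, Rps19, Rps24, Rps26, Rpl35a, Rps6 and Rpl13a, and the paralog partners Rpl22l1, Rpl39, Rps27, Rpl3, Rpl10, Rpl7 and Rpl36a, were not analysed here. In the GENCODE M21 annotation of mm10 the 25 genes lie on 13 chromosomes. It gives 23 of them as protein-coding and 2, Rpl32l and Rps4l, as processed pseudogenes, which are copies of an mRNA inserted elsewhere in the genome. Rps19bp1 meets the symbol rule but encodes a protein that binds Rps19 and is not part of the ribosome. At least 1 close copy elsewhere among the annotated transcripts (95% identity or more over 100 bases or more) exists for 18 genes, and Rps2 with 20 copies, Rpl30 with 12 and Rps4x with 7 have the most. The place of each amplicon within its gene is not given in the sources used here, so reads of such genes may have been lost or split, and their levels are uncertain.

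Counts passed the filter for low values in 23 of the 25 genes. Rpl10l, a copy of Rpl10 known from testis, had 0 counts in each library, and Rpl3l, the form of Rpl3 found in heart and skeletal muscle, had 0 or 1. Neither exceeded 3 counts, the most that a count of 0 allows. Each amplicon has its own yield, which was not measured, so levels are compared between libraries and not between genes. Even so, 10 genes had a mean of 1000 CPM or more, among them Rps15, Rpl4, Rps3, Rps9, Rpl8, Rpl32, Rps14 and Rps21. At the other end were Rpl22, Rpl39l and Rps2. Rps2, a core protein of the small subunit, had 3 to 17 counts per library, and Rplp0, the base of the stalk that recruits elongation factors, 40 to 90 counts.

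Together the 25 genes took 3.30% and 3.47% of all counts in the BL/6 CMP libraries and 4.04% and 4.25% in the pMT-10 CMP libraries. LSK CD150+CD48+ cells stood at 3.26% and 3.94%, and HSC at 3.86%. Both pMT-10 CMP libraries were thus above the other 5, and the LSK CD150+CD48+ pair spanned the values of BL/6 CMPs and HSC. With 2 libraries a group no exact permutation test of this share can pass, and none was made. Lower RNA per cell and fewer cells of a type cannot be told apart in such bulk libraries. Without the 10 most abundant genes the share was 0.176% in BL/6 CMPs, 0.200% in pMT-10 CMPs, 0.129% in LSK CD150+CD48+ and 0.212% in HSC libraries (group means), so those 10 genes carry nearly all of it. The 69 genes of the mitochondrial ribosome, a separate machine, took 0.715% and 0.737% in BL/6 CMPs, 0.792% and 0.780% in pMT-10 CMPs, 0.622% and 0.675% in the LSK CD150+CD48+ pair and 0.715% in HSC. These mitochondrial shares were highest in pMT-10 CMPs and lowest in LSK CD150+CD48+ cells.

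**Figure D1:**
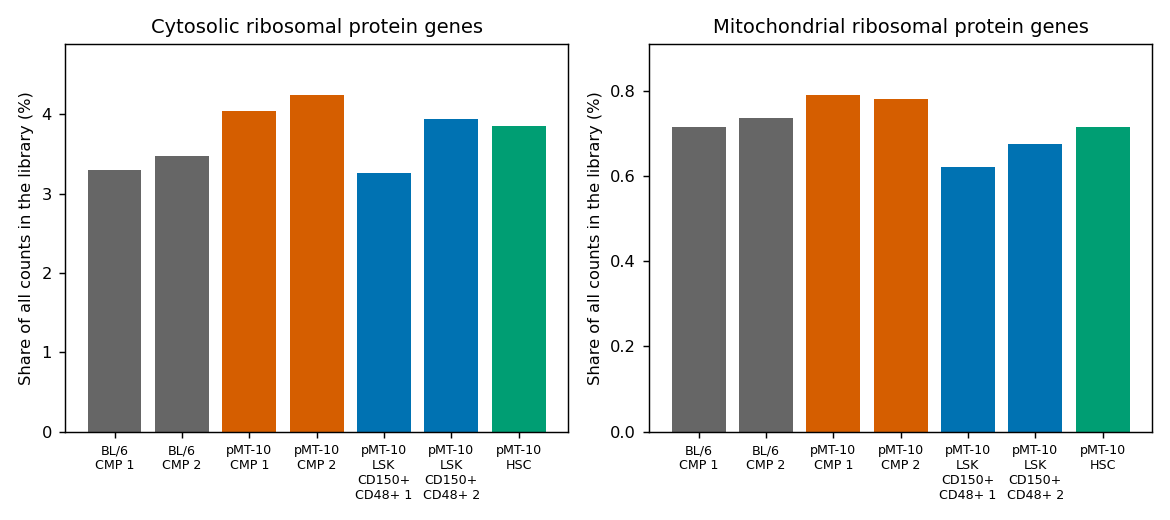
Share of all counts, in percent, that fell on the 25 cytosolic (left) and 69 mitochondrial (right) ribosomal protein genes, with 1 bar per library coloured by group. The 2 pMT-10 CMP libraries, at 4.04% and 4.25%, are the highest on the left, and the 2 LSK CD150+CD48+ libraries the lowest on the right.

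Over the 23 tested genes the ratio of the highest to the lowest group mean had a median of 1.92, with 12 genes under 2. The smallest ratio was that of Rps14 (1.37) and the largest that of Rps4x (8.82). The highest group mean lay in pMT-10 CMPs for 12 genes, in HSC for 6, in BL/6 CMPs for 4 and in LSK CD150+CD48+ cells for 1. The lowest lay in BL/6 CMPs for 9, in LSK CD150+CD48+ cells for 5, in HSC for 5 and in pMT-10 CMPs for 4. Between the libraries of a pair the SD of the log2 difference over these genes was 0.30 in BL/6 CMPs, 0.44 in LSK CD150+CD48+ cells and 0.71 in pMT-10 CMPs.

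**Figure D2:**
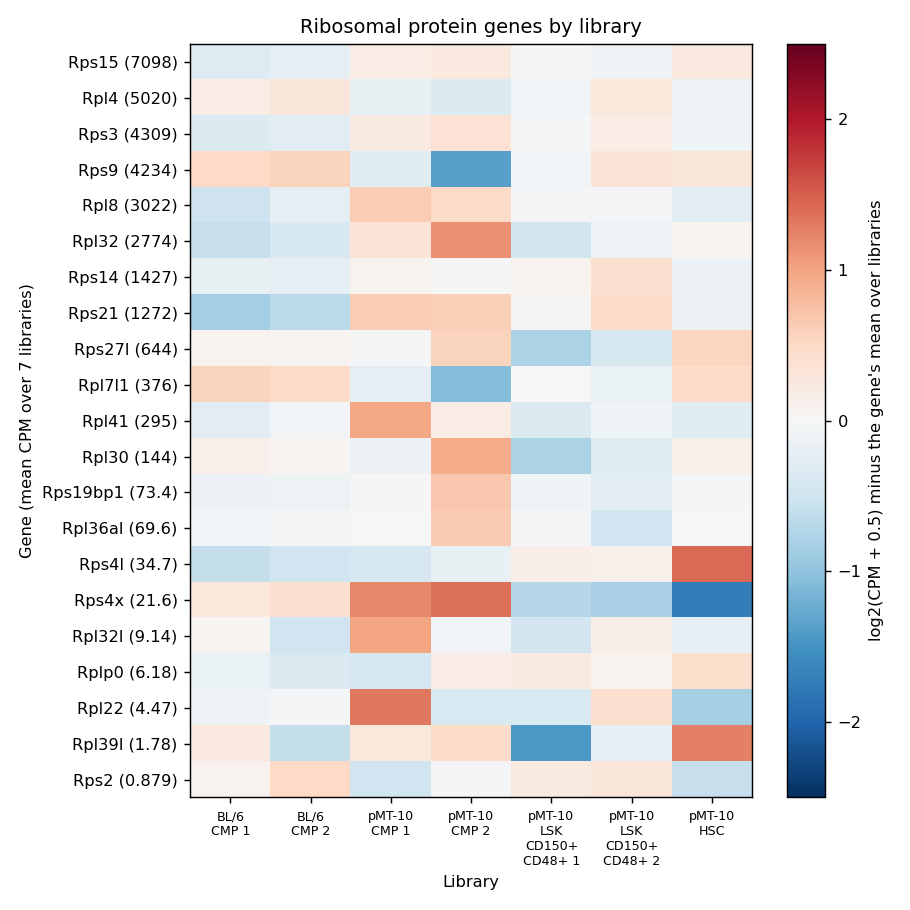
Each row is 1 of 21 tested genes, ordered by mean CPM (in brackets), and each column 1 library; the colour is log2(CPM + 0.5) minus the gene's mean over the 7 libraries. The pair of pMT-10 CMP columns differs in Rps9, Rpl41 and Rpl22, and Rps4x and Rps4l show the strongest contrast between the HSC column and the CMP columns.

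The first comparison, pMT-10 CMPs against BL/6 CMPs, addresses the effect of IL-10 overexpression on this progenitor. The animals' sex is not in the labels. The Y-linked gene Ddx3y had 0 counts in both BL/6 libraries and 197 and 320 in the pMT-10 CMP libraries, which also held Xist. Strain, run and the animals' sex therefore cannot be told apart in this comparison. Ribosomal protein genes were more often higher than lower in pMT-10 CMPs. Of 23 tested genes 8 rose (among them Rps21, Rpl32, Rps4x, Rpl8, Rpl41, Rps3 and Rps15), 2 fell (Rps9 and Rpl7l1) and 13 did not pass. The changes that passed ran from -1.26 to 1.37 on the log2 scale. The test was edgeR's quasi-likelihood test over 11429 genes, with an adjusted p under 0.05 called. Of all tested genes 28% were called, 14.3% higher and 13.7% lower, against 43.5% of the ribosomal protein genes, 34.8% higher and 8.7% lower. Their median log2 fold change was 0.50, beside 0.01 over all tested genes.

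In the large subunit, Rpl32 was at 1703 and 1929 CPM in BL/6 CMPs and at 3241 and 5613 CPM in pMT-10 CMPs. Both pMT-10 libraries were above both BL/6 libraries, though they stood far apart, and the log2 fold change was 1.29 ± 0.26 (SE, adjusted p = 0.00827, edgeR). Rpl8, a protein near the site of peptide bond formation, went from 2033 and 2461 CPM to 4546 and 4053 CPM, a rise of 0.94 ± 0.18 (adjusted p = 0.00603). Rpl41, a very short basic peptide, was at 233 and 265 CPM against 548 and 317 CPM (0.80 ± 0.25, adjusted p = 0.0443). Its rise rested largely on the first pMT-10 library. Rpl4, which lines the tunnel through which the new protein leaves, went the other way without passing the test, with 5649 and 6004 CPM in BL/6 CMPs and 4372 and 3913 CPM in pMT-10 CMPs (-0.49, adjusted p = 0.0711). The stalk gene Rplp0 was at 5.36 and 4.61 CPM against 4.41 and 6.95 CPM, and the groups overlapped.

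In the small subunit, Rps21 changed most. It was at 655 and 740 CPM in BL/6 CMPs and at 1818 and 1786 CPM in pMT-10 CMPs, 2 pairs that agree closely within themselves. The log2 fold change was 1.37 ± 0.20 (adjusted p = 0.00248, edgeR). Rps3, which sits where the mRNA enters the ribosome, was at 3346 and 3499 CPM against 4951 and 5439 CPM (0.60 ± 0.17, adjusted p = 0.0289). Rps15, a protein of the subunit's head, was at 5638 and 5928 CPM against 8035 and 8341 CPM (0.50 ± 0.16, adjusted p = 0.0446). Rps3 and Rps15 differed modestly, and in each the libraries of the groups did not overlap.

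Rps9, another protein of the mRNA entry site, fell. It was at 5521 and 5773 CPM in BL/6 CMPs and at 3193 and 1534 CPM in pMT-10 CMPs, with a log2 fold change of -1.26 ± 0.31 (adjusted p = 0.0173, edgeR). The pMT-10 libraries differed more from each other, as a ratio, than the first of them did from BL/6 CMPs. Rps14, the gene of the 5q- syndrome, was at 1242 and 1206 CPM against 1508 and 1387 CPM (0.24, adjusted p = 0.332). In all, the pMT-10 libraries lay above both BL/6 libraries in 13 genes and below both in 5, and 33.2% and 33.7% of all tested genes did so.

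Among paralogs and other relatives, Rpl7l1, a relative of Rpl7, fell from 520 and 491 CPM to 304 and 166 CPM (-1.11 ± 0.26, adjusted p = 0.0150, edgeR). Rps27l, a relative of Rps27 that p53 can induce, was at 649 and 641 CPM against 600 and 906 CPM. Rpl36al, an intronless copy of Rpl36a, was at 64.6 and 65.9 CPM against 68.5 and 108 CPM. Rpl22, a large-subunit protein needed for T cell development, was at 3.60 and 3.80 CPM against 10.6 and 2.90 CPM. Rpl39l, a copy of Rpl39 known from testis, was at 1.85 and 0.808 CPM against 1.88 and 2.20 CPM. None of these last 4 passed, and in the pMT-10 pair Rpl22 and Rps27l each had 1 library well above the other. Rpl30, Rpl32l, Rps19bp1 and Rps2 also did not pass.

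These calls depended on the BL/6 pair. Without BL/6 replicate 1, Rps21 was the 1 gene of the family still called (582 genes in all, 5.12%), and without BL/6 replicate 2, Rpl8 and Rps21 (764 genes, 6.71%). Without either LSK CD150+CD48+ library fewer were called, as over all tested genes, and Rpl41 and Rps15 were among those lost. Without either pMT-10 CMP library more genes of the family were called, and so were more of all tested genes. Rpl41 lost its call without pMT-10 CMP replicate 1. Over the 15 alternatives Rpl41 and Rps15 each lost their call in 7. When a pair is reduced to 1 library, that library is assumed to vary like the other groups.

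**Figure D3:**
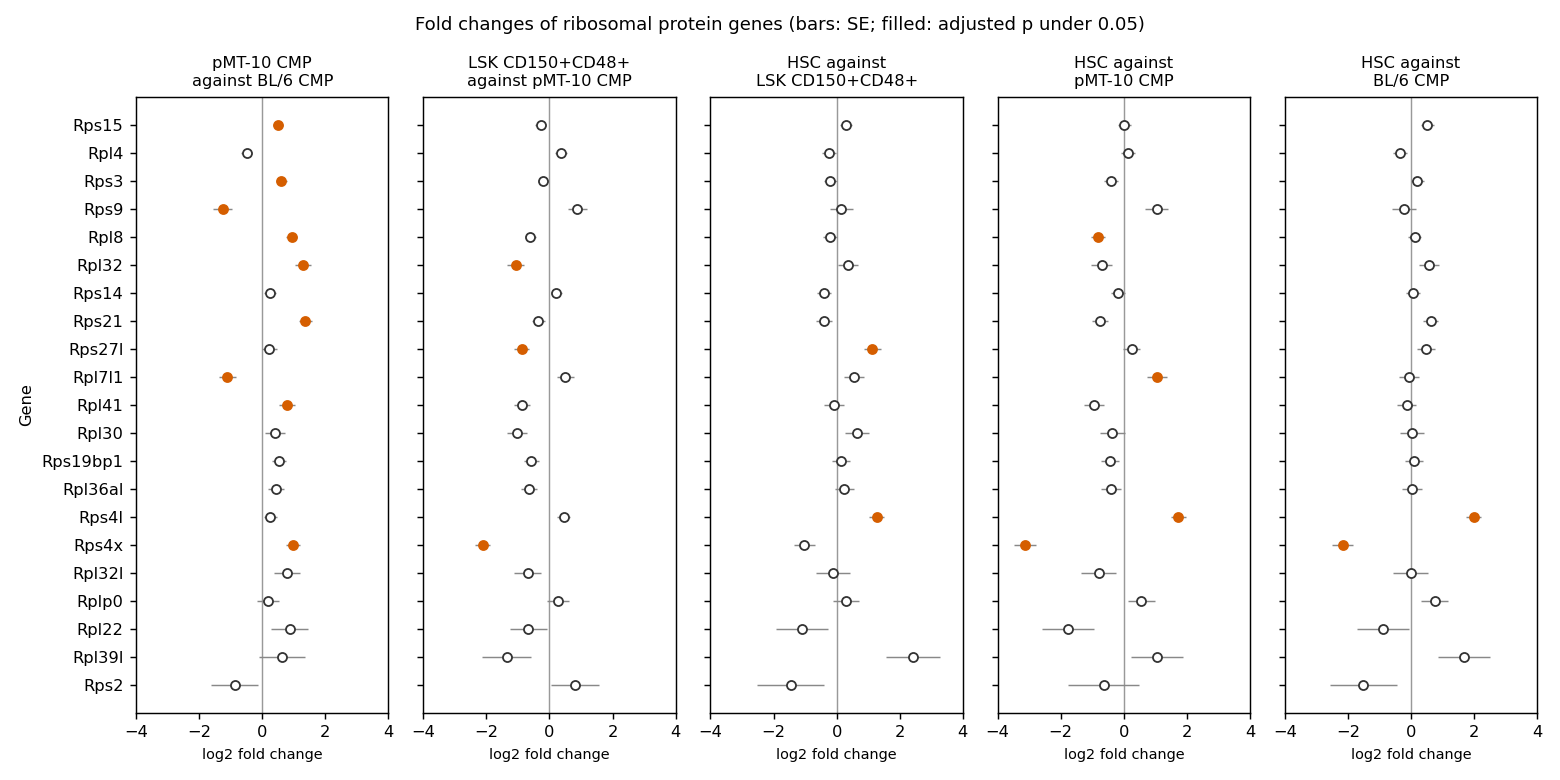
log2 fold changes of 21 tested genes (rows, ordered by mean CPM) in the 5 comparisons (panels), with bars for the SE and filled points for an adjusted p under 0.05. Filled points are most frequent in the first panel, with 7 to the right of 0 and 2 to the left, and Rps4x is filled on the left in the panels of LSK CD150+CD48+ cells against CMPs and of HSC against both CMP groups.

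Factors that build or regulate ribosomes moved in both directions in this comparison. Of all tested genes 14.3% were called higher and 13.7% lower. Of 51 tested ribosome biogenesis factors 8 rose and 5 fell (median log2 fold change -0.06). Among those that rose were Emg1, which methylates the small subunit's RNA, from 191 to 499 CPM (group means, 1.38 ± 0.18), Nip7 (1.54 ± 0.21) and the helicase Ddx18 (0.97 ± 0.16). Of 15 genes of RNA polymerase I, which transcribes ribosomal RNA, 4 rose and 1 fell (median -0.02), with the subunits Polr1d at 1.09 ± 0.17 and Polr1c at 0.75 ± 0.18. Of 14 elongation factors and other mRNAs with a terminal oligopyrimidine tract 3 rose and 4 fell (median -0.34). Eef1b2 rose from 1465 to 3765 CPM, while Eef1a1 (44.4 against 22.3 CPM) and Eif4b (-0.98 ± 0.25) fell. Close copies were not looked up for genes outside the family, so a level such as that of Eef1a1 is uncertain. Of 22 initiation factors 2 rose and 5 fell (median -0.34), with Eif3a, the largest subunit of eIF3, at -1.32 ± 0.18.

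Of 21 regulators of ribosomal protein synthesis 2 rose and 3 fell in pMT-10 CMPs (median -0.04), beside 14.3% and 13.7% of all tested genes. Myc, which drives transcription of ribosomal protein and ribosomal RNA genes, fell. It was at 1479 and 1260 CPM in BL/6 CMPs and at 520 and 740 CPM in pMT-10 CMPs (-1.12 ± 0.21, adjusted p = 0.00608, edgeR). Mxd1, whose product competes with MYC for MAX, went from 16.4 and 17.5 CPM to 57.4 and 34.5 CPM (1.44 ± 0.28, adjusted p = 0.00689). Eif4ebp2, a repressor of cap-dependent translation that mTORC1 inactivates, fell by 1.08 ± 0.18 on the log2 scale. Myc and Mxd1 thus moved opposite to each other, with no overlap between the groups in either gene. Of 13 tested genes of the p53 response, Trp53 itself among them, 3 rose and 5 fell (median -0.52). Bax was at 1.32 ± 0.19 and Cdkn1a at -1.53 ± 0.28. The targets of p53 respond when ribosome assembly fails. Of 69 mitochondrial ribosomal protein genes 15 rose and 10 fell (median 0.10), for example Mrpl40 (1.33 ± 0.20) and Mrpl39 (-1.63 ± 0.20). Rack1, a small-subunit protein outside the symbol rule, was at 6957 and 7023 CPM in BL/6 CMPs and at 8585 and 10362 CPM in the pMT-10 pair and did not pass.

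Rps4x and Rps4l are 1 of the 2 pairs of related genes that were aligned and compared within each library. Rps4x encodes a small-subunit protein and lies on chromosome X (mm10, 102184941 to 102189394, minus strand). Rps4l lies on chromosome 6 (148354656 to 148355598, plus strand), and GENCODE M21 calls it a transcribed processed pseudogene. Over the 789 bases of the Rps4x coding sequence the Rps4l transcript is identical at 628 (79.6%), with no gap. The longest run without a mismatch is 35 bases, so longer reads can tell these 2 genes apart. The stretch with the most mismatches, 20 in 60 bases, is printed to show how the copies differ, with mismatched bases in capitals. It covers bases 475 to 534 of the Rps4x coding sequence and 529 to 588 of the Rps4l transcript:
Rps4x: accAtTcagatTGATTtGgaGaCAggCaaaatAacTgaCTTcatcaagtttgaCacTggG
Rps4l: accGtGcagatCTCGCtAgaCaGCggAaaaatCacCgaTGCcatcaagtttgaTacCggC

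Rps4x was at 20.4 and 22.3 CPM in BL/6 CMPs, 39.6 and 44.4 in pMT-10 CMPs, 10.1 and 9.43 in the LSK CD150+CD48+ pair and 4.76 in HSC. Rps4l was at 20.1 and 21.7 CPM in BL/6 CMPs, 22.8 and 27.2 in pMT-10 CMPs, 34.8 and 33.8 in the LSK CD150+CD48+ pair and 82.7 in HSC. Rps4x was thus highest in pMT-10 CMPs and lowest in HSC, and Rps4l was highest in HSC, with no overlap between groups in either gene. The neighbours BL/6 and pMT-10 CMPs did not differ in Rps4l beyond the test (0.26, adjusted p = 0.375, edgeR), nor did pMT-10 CMPs and LSK CD150+CD48+ cells (0.45, adjusted p = 0.176). In counts, Rps4l over Rps4x was 0.986 and 0.971 in BL/6 CMPs, 0.577 and 0.614 in pMT-10 CMPs, 3.47 and 3.59 in the LSK CD150+CD48+ pair and 17.4 in HSC. The ratio is read between libraries, not as a proportion of the 2 RNAs, and it differed little between the libraries of a pair. The HSC ratio rests on 36 counts of Rps4x and 625 of Rps4l.

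**Figure D4:**
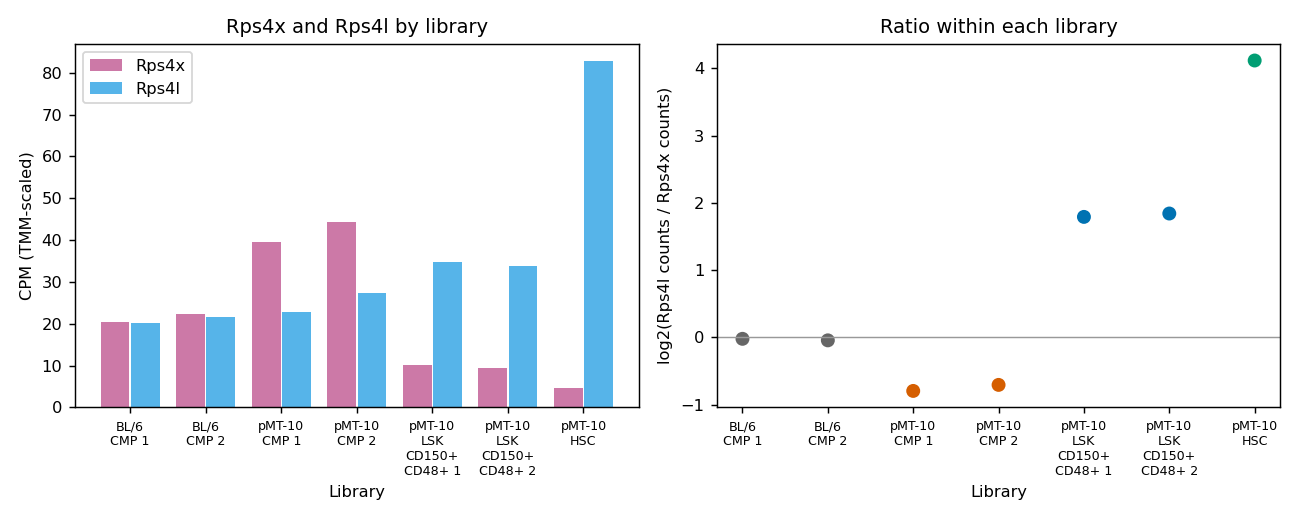
Left, bars give the CPM of Rps4x and Rps4l in each library; right, points give the log2 ratio of their counts in the same library, coloured by group, with a line at equal counts. The ratio is near 0 in BL/6 CMPs, below 0 in pMT-10 CMPs, near 1.8 in LSK CD150+CD48+ cells and 4.12 in HSC.

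Rps4x was higher in pMT-10 than in BL/6 CMPs (0.98 ± 0.23, adjusted p = 0.0134, edgeR), a call lost without either BL/6 library (adjusted p up to 0.170 over the alternatives). LSK CD150+CD48+ cells had less of it than pMT-10 CMPs on the same run (-2.11 ± 0.24, adjusted p = 0.00148). This call was lost without either LSK CD150+CD48+ library, with adjusted p up to 0.0621. HSC had less than pMT-10 CMPs (-3.14 ± 0.34, adjusted p = 0.000643) and less than BL/6 CMPs on the same run (-2.16 ± 0.33, adjusted p = 0.00235). Against LSK CD150+CD48+ cells HSC missed the threshold (-1.03, adjusted p = 0.0569). Rps4l was higher in HSC than in LSK CD150+CD48+ cells (1.27 ± 0.24, adjusted p = 0.00950), pMT-10 CMPs (1.72 ± 0.24, adjusted p = 0.00195) and BL/6 CMPs (1.98 ± 0.24, adjusted p = 0.000749). The calls of both genes in HSC against either CMP group held in 15 of 15 alternative settings, each with the 1 HSC library assumed to vary like the others.

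Because Rps4x is X-linked, counts of sex-linked genes were set beside it. Ddx3y, on the Y chromosome, had 0 counts in both BL/6 libraries and 197 to 1040 in the 5 pMT-10 libraries. The counts of Xist, the RNA that silences an X chromosome, were 9308 and 8745 in BL/6 CMPs, 11904 and 8140 in pMT-10 CMPs, 2431 and 2 in the LSK CD150+CD48+ pair and 959 in HSC. The part of the animals' sex in the Rps4x differences was not tested. The erythroid marker sum, most of it Car1, was 706 CPM in HSC against 7642 and 9601 in LSK CD150+CD48+ cells and 7114 to 11729 in the CMPs. This sum also moves with the HSC values. None of the 9 erythroid markers was at 0 in HSC, Slc4a1 was at 0 in LSK CD150+CD48+ replicate 1, and their part in the result was not tested.

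The comparison of LSK CD150+CD48+ cells with CMPs, both from pMT-10 mice and the same run, asks how a more primitive population differs. Xist had 2431 and 2 counts against 11904 and 8140 in the CMPs, and the part of the animals' sex was not tested. Few ribosomal protein genes passed. Of 23 tested genes 3 fell in LSK CD150+CD48+ cells (Rps4x, Rpl32 and Rps27l) and 20 did not pass, with a median log2 fold change of -0.54 beside -0.01 over all genes. In edgeR 0 rose, with 2 higher at an unadjusted p under 0.05. DESeq2 called 2 higher, Rps9 among them, and 6 lower (15.5% of all genes called), and limma-voom 4 lower (13%). Of all tested genes 11.8% were called, 5.92% in each direction, against 13% of the ribosomal protein genes, each of them lower.

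Rpl32 was at 1851 and 2370 CPM in LSK CD150+CD48+ cells, against 3241 and 5613 CPM in CMPs (-1.07 ± 0.26, adjusted p = 0.0324, edgeR). Rps27l was at 353 and 464 CPM against 600 and 906 CPM (-0.88 ± 0.23, adjusted p = 0.0404). Both pairs are without overlap, and in both genes the CMP libraries lie further apart than the LSK CD150+CD48+ libraries. Rps9 was at 3758 and 4992 CPM in LSK CD150+CD48+ cells, above 3193 and 1534 CPM in CMPs, and did not pass (0.89, adjusted p = 0.0887). The LSK CD150+CD48+ libraries lay above both CMP libraries in 6 genes and below both in 13, as did 27.8% and 27.9% of all tested genes. Rps14 had its highest group mean in LSK CD150+CD48+ cells, at 1497 and 1868 CPM (0.22, adjusted p = 0.444). The most abundant gene, Rps15, was at 6885 and 6575 CPM, Rpl4 at 4710 and 5948 CPM and Rps3 at 4169 and 4836 CPM, and none of the 3 passed.

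Without LSK CD150+CD48+ replicate 1 or replicate 2 edgeR called 0 of these genes (44 and 96 genes in all). At an unadjusted p under 0.05 there were 3 higher and 4 lower without replicate 1, and 9 lower without replicate 2. Without either BL/6 library Rps4x kept its call, and Rpl32 and Rps27l lost theirs. Without either pMT-10 CMP library more genes of the family were called, and so were more of all tested genes. The comparison shares its CMP libraries with the first, so a gene high in those libraries, such as Rpl32, appears in both.

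Of 51 biogenesis factors 5 fell (median -0.22), including Emg1 (-0.87 ± 0.18), Ddx18 (-0.70 ± 0.16) and Dkc1, the pseudouridine synthase of dyskeratosis congenita (-0.93 ± 0.20). Of 15 polymerase I genes 1 rose and 4 fell (median -0.11), with Znrd1 at 1.18 ± 0.26 and Polr1d at -0.81 ± 0.17. Among elongation factors Eef1b2 was the 1 of 14 that fell (-1.08 ± 0.23), and of 22 initiation factors 1 rose (Eif4h, 1.46 ± 0.34) and 1 fell (Eif2b3). Of 21 regulators 2 rose and 2 fell, and 5.92% of all tested genes were called in each direction. Mycn, a relative of Myc, was at 23.3 and 23.9 CPM against 5.08 and 8.69 CPM (1.78 ± 0.30), Rheb, the activator of mTORC1, rose by 0.91 ± 0.20, and Rps6kb1, the S6 kinase, fell by 0.93 ± 0.17 on the log2 scale. Of the 13 genes of the p53 response 2 rose and 2 fell. Of 69 mitochondrial ribosomal protein genes 1 rose and 6 fell (median -0.30), with Mrpl52 at -1.11 ± 0.24.

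HSC were then set against LSK CD150+CD48+ cells, the comparison within the stem and multipotent cells of pMT-10 mice, which lie on different runs. Apart from Rps4l, Rps27l was the 1 gene that passed. It was at 893 CPM in HSC against 353 and 464 CPM (1.13 ± 0.27, adjusted p = 0.0228, edgeR). Thus 2 of 23 rose and 21 did not pass, 8.7% of the genes beside 18.8% of all tested genes (10.6% higher and 8.15% lower). The median log2 fold change was 0.09, beside 0.03 over all genes. Rpl39l was at 4.24 CPM in HSC, from 32 counts, against 0.234 and 1.22 CPM, from 2 and 17 counts, and did not pass (2.41, adjusted p = 0.0751). HSC stood above both LSK CD150+CD48+ libraries in 10 genes and below both in 8, as did 45.4% and 41.6% of all tested genes. Without LSK CD150+CD48+ replicate 1 or 2 edgeR called 0 (at an unadjusted p under 0.05, 2 higher and 2 lower, and 3 higher and 1 lower). Without either BL/6 library Rps4l kept its call and Rps27l lost it. Without either pMT-10 CMP library more genes of the family were called, and so were more of all tested genes.

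Against pMT-10 CMPs, also on the other run, HSC had 2 genes higher (Rps4l and Rpl7l1) and 2 lower (Rps4x and Rpl8), and 19 did not pass. That is 17.4% of the 23, beside 25.5% of all tested genes (13.8% higher and 11.7% lower), and the median was -0.39 beside 0.02. Rpl7l1 was at 485 CPM in HSC against 304 and 166 CPM (1.05 ± 0.31, adjusted p = 0.0364, edgeR), a level close to the 520 and 491 CPM of BL/6 CMPs. Rpl8 was at 2428 CPM against 4546 and 4053 CPM (-0.82 ± 0.22, adjusted p = 0.0270), and BL/6 CMPs were at 2033 and 2461 CPM. HSC lay above both pMT-10 CMP libraries in 7 genes and below both in 13 (41.1% and 38.1% of all tested genes). Rps9, at 4866 CPM against 3193 and 1534 CPM, did not pass (1.04, adjusted p = 0.0628). Without either BL/6 or either LSK CD150+CD48+ library Rpl7l1 and Rpl8 lost their calls. Leaving out either pMT-10 CMP library raised the number called, in the family and over all tested genes.

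Against BL/6 CMPs, on the same run but of the other strain, HSC differed in Rps4l and Rps4x, and 21 genes did not pass. Ddx3y had 0 counts in both BL/6 libraries and 370 in HSC. Population, strain and the animals' sex therefore cannot be told apart here. The share called, 8.7%, stands beside 20.3% of all tested genes (11.8% higher and 8.5% lower), and the median was 0.07 beside -0.01. Rps15 was at 8286 CPM in HSC against 5638 and 5928 CPM, Rpl4 at 4544 against 5649 and 6004 CPM, Rps3 at 3922 against 3346 and 3499 CPM, and Rps14 at 1281 against 1242 and 1206 CPM. None of these 4 genes passed, which does not show that they were equal. HSC lay above both BL/6 libraries in 13 genes and below both in 7 (44.9% and 45.7% of all tested genes). Without either pMT-10 CMP library more genes of the family were called, among them Rps15, Rps21, Rpl32 and Rps27l. More of all tested genes were called there too. The 3 comparisons with HSC share its 1 library.

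In HSC the biogenesis factors that passed were lower than in either CMP group. They were 11 of 51 against pMT-10 CMPs (median -0.37) and 5 against BL/6 CMPs (median -0.30). Of all tested genes 13.8% were called higher and 11.7% lower against pMT-10 CMPs, and 11.8% and 8.5% against BL/6 CMPs. Set against LSK CD150+CD48+ cells, 10.6% were higher and 8.15% lower. The 5 lower against BL/6 CMPs are near the share of all genes. Ddx18 was at -1.19 ± 0.21, Nip7 at -1.35 ± 0.28 and Emg1 at -1.11 ± 0.23 against pMT-10 CMPs, and Nmd3, the export adaptor of the large subunit, at -1.21 ± 0.26 against BL/6 CMPs. Against LSK CD150+CD48+ cells 2 rose and 5 fell (median -0.14), with Gnl3, nucleostemin, at 0.87 ± 0.23 and Nop58 at 0.85 ± 0.23. Of 21 regulators 2 rose and 4 fell against pMT-10 CMPs (median -0.47), 1 rose and 4 fell against BL/6 CMPs (median -0.37) and 3 fell against LSK CD150+CD48+ cells (median -0.32). Mycn was at 43.0 CPM in HSC and 8.31 and 8.32 CPM in BL/6 CMPs, with log2 fold changes of 2.64 ± 0.34 against pMT-10 and 2.37 ± 0.34 against BL/6 CMPs. Eif4ebp2 fell by 1.66 ± 0.24 against BL/6 CMPs and by 1.07 ± 0.23 against LSK CD150+CD48+ cells on the log2 scale. Gabpa, which encodes an ETS factor that binds ribosomal protein promoters, was at 16.9 CPM in HSC and lower than in LSK CD150+CD48+ cells (-0.97 ± 0.27), pMT-10 CMPs (-0.88 ± 0.27) and BL/6 CMPs (-1.14 ± 0.27). Naca, of the nascent polypeptide complex at the ribosome, was at 1698 CPM in HSC, higher than in pMT-10 CMPs (1.48 ± 0.34) and LSK CD150+CD48+ cells (1.23 ± 0.34). Of 69 mitochondrial ribosomal protein genes 4 rose and 12 fell against pMT-10 CMPs, 5 rose and 3 fell against LSK CD150+CD48+ cells and 2 fell against BL/6 CMPs.

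Promoter sequence was read because several of these genes were called in pMT-10 CMPs and the products of Gabpa, Yy1 and Myc bind known motifs. RefSeq windows (GRCm38.p6) from 250 bases before to 50 after the gene start were at hand for 18 of the 25 genes and for 27025 genes in all. On either strand CCGGAAG, the core bound by GABPA and other ETS factors, was found in 5 of 18 (27.8%) and in 9.93% of all genes with a window. The YY1 core AANATGGC was found in 2 of 18 (11.1%) and in 6.96% of all. The E-box CACGTG, bound by MYC, was found in 0 of 18 and in 8.09% of all, and TATAAA in 4 of 18 (22.2%) and 15.7%. None of these motifs contains another. Of the 5 genes with the ETS core, Rps21 and Rpl41 rose in pMT-10 CMPs, Rps27l differed between HSC and LSK CD150+CD48+ cells, and Rpl39l and Rps2 were at very low counts. In the whole family 8 of 23 tested genes rose in pMT-10 CMPs. Rpl7l1, which fell, holds a YY1 core, and so does Rpl22, which did not pass in any comparison. The matches in the genes that moved are printed with 30 bases each and the core in capitals, read on the gene's strand:
Rps21, chr2:180257279-180257308, plus strand: gctttctttgcaCCGGAAGcggaagttaaa
Rps21, chr2:180257341-180257370, plus strand: gagtaccctgacCCGGAAGcacttaccgag
Rpl41, chr10:128549207-128549236, minus strand: ctagtaaggcagCCGGAAGtcgctgtctcg
Rps27l, chr9:66946083-66946112, plus strand: gccgcctctatcCCGGAAGttgctgagggg
Rpl7l1, chr17:46782617-46782646, minus strand: gaagcaccggaAAGATGGCggaggaagggt
A match is a description of these letters and not a site shown to be bound.

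Rpl32 and its retrocopy Rpl32l show the opposite case to Rps4x and Rps4l, since their sequences barely differ. Rpl32 lies on chromosome 6 (115805505 to 115808747, minus strand) and Rpl32l on chromosome 10 (20208490 to 20208888, plus strand). Their alignment has 388 identical bases in 405 columns (95.8%) and a longest identical run of 94 bases. A 60-base stretch with 4 mismatches (capitals) shows how little there is to tell reads apart, bases 251 to 310 of the Rpl32 coding sequence and 245 to 304 of the Rpl32l transcript:
Rpl32: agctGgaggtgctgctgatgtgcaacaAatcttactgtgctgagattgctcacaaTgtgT
Rpl32l: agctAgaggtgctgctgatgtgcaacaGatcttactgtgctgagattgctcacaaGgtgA
Rpl32l had 52 to 159 counts per library against 15831 to 48430 for Rpl32, a ratio of 0.00147 to 0.00541. It was at 9.05 and 5.98 CPM in BL/6 CMPs, 17.5 and 8.23 in pMT-10 CMPs, 6.08 and 9.72 in the LSK CD150+CD48+ pair and 7.41 in HSC. The 3 groups of 2 libraries overlapped each other, and HSC lay below both pMT-10 CMP libraries. At this identity a misplaced fraction of Rpl32 reads of that size could not be told from Rpl32l transcripts.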

How the data were processed

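Total RNA of sorted cells was extracted with the RNeasy Micro kit and libraries were made with the Ion AmpliSeq Transcriptome kit, per the labels' protocols. The authors deposited raw counts per amplicon in 2 tables, each taken here as 1 sequencing run. Reads were placed on mm10 according to the submitters' processing notes. The aligner and counter were not given in the sources used here. Each of the 7 columns was matched to its sample by the barcode and table named in the labels. Counts were analysed with edgeR 4.0.16 in R 4.3.3. Genes were filtered with filterByExpr (minimum count 10), which left 11429, libraries were scaled by TMM, and 1 fit over all 7 libraries (3 residual degrees of freedom) was tested with the robust quasi-likelihood test. P-values were adjusted by Benjamini-Hochberg over all tested genes, and under 0.05 was called. SEs come from the same fit. CPM use TMM-scaled totals, and shares the plain totals. The HSC library is assumed to vary like the others. Called members named by rank averaged at least 20 CPM where they were higher, a minimum not set for genes of the pathway lists.

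The members and all gene lists were chosen with earlier results of these data known. Genes named were, in each comparison, up to 6 called members in each direction with no overlap between groups, the 3 most and 3 least abundant tested members, a set of stalk, ribosomopathy and paralog genes, and up to 3 called genes with the smallest p of each pathway list. Other members, Rack1 and the library values of Myc, Mxd1 and Mycn are given after their values were seen. Some genes of these rules are not reported here, and the plots by gene leave them out. Gene positions are those of GENCODE M21. Sequences were read from its transcripts and from RefSeq promoter windows. Alternatives were other scalings (RLE, total counts, TMM without these genes), DESeq2 1.42.0, limma-voom (limma 3.58.1), other filters, the groups compared alone, the replicate number as a block, and each library but HSC left out. The tests were checked on simulated counts.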

Additional observations from a re-analysis of the deposited data

How the results depend on the processing

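For the 32 single-gene results, 393 alternative values kept their direction and side of the threshold, 63 lost a call and 22 gained one. The 1 change of sign was Rplp0 in pMT-10 against BL/6 CMPs when 1 library was left out (-0.17 without pMT-10 CMP replicate 2, up to 0.48 without replicate 1). The number of called members moved more. With the groups compared alone it was 5 instead of 10 in pMT-10 against BL/6 CMPs, 1 instead of 3 in LSK CD150+CD48+ cells against CMPs, 5 instead of 2 in HSC against LSK CD150+CD48+ cells, 2 instead of 4 in HSC against pMT-10 CMPs and 8 instead of 2 in HSC against BL/6 CMPs. Over all tested genes 21.6%, 5.71%, 36.4%, 9.37% and 54.9% were called with the groups alone, in the same order. In the main fit the shares were 28%, 11.8%, 18.8%, 25.5% and 20.3%. The rise to 8 of 23 members in HSC against BL/6 CMPs thus came with a rise over all tested genes. DESeq2 called 8 in LSK CD150+CD48+ cells against CMPs and 7 in HSC against pMT-10 CMPs, and without a filter on low counts there were 8 and 9. In these 2 comparisons DESeq2 called 15.5% and 26% of all tested genes, and without the filter 12.4% and 19.7% were called. Leaving out 1 library gave 1 to 15 members, 0 to 11, 0 to 6, 2 to 12 and 2 to 6 in the 5 comparisons in that order. The number called over all tested genes also changed with the library left out. The members' median log2 fold change then ran from 0.30 to 0.50, from -0.54 to -0.28, from -0.09 to 0.17, from -0.47 to -0.082 and from 0.03 to 0.07, so its sign was not stable in HSC against LSK CD150+CD48+ cells. Total counts without a composition factor put the median of HSC against BL/6 CMPs at 0.13.

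Replicate numbers of the labels did not pair the libraries (correlations of same-numbered deviations -0.019, -0.076 and -0.019). With the replicate block 8, 4, 2, 2 and 2 members were called in the 5 comparisons. Over all tested genes 25.8%, 10.5%, 13.7%, 18.3% and 15.9% were called in them. In the members the fourth comparison was down from 4. The first lost Rpl41 (adjusted p = 0.0558, edgeR) and Rps15 (0.0650) and the fourth Rpl7l1 (0.0507) and Rpl8 (0.0517), and the median of HSC against BL/6 CMPs was 0.13. The share of counts without the 10 most abundant members was 0.176% in BL/6 CMPs, 0.200% in pMT-10 CMPs, 0.129% in LSK CD150+CD48+ cells and 0.212% in HSC. The share of the members without Rps19bp1 and the paralogs was 3.25% in BL/6 CMPs, 4.02% in pMT-10 CMPs, 3.51% in LSK CD150+CD48+ cells and 3.69% in HSC. Depth limits Rps2 (3 to 17 counts per library) and Rpl39l (2 to 32 counts) most. The cause of these shifts was not tested, except that fewer libraries or other genes enter by construction.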
